A study of Arabidopsis thaliana with 18 samples.

Results

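The genes described here are the 100 of 17663 measured Arabidopsis genes that combined the highest level in phosphate-starved roots, relative to the control supply, with the lowest in phosphate-starved shoots. They were chosen from the measured values. For each gene the mean at 0 mM phosphate (P0) minus the mean at 1.25 mM phosphate (P1.25) was taken in root and in shoot, the score was the smaller of the root rise and the shoot fall, and the 100 highest scores were kept. Values are log2 intensities, so a difference of 1 is 2-fold, and a score above 1 means more than 2-fold in both tissues. The P0 against P1.25 differences of these genes are descriptions, since they made the choice.

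Plants of the wild type Col-0 were grown for 5 days in liquid medium (0.5X MS with sucrose) and then kept for 7 days at P0, at P1.25 (the control supply) or at 20 mM phosphate (P20), and in the P0 medium K2SO4 took the place of KH2PO4. Roots and shoots were hybridised separately to whole-transcript gene arrays, 3 per tissue and supply, 18 in all, which the methods describe as independent biological experiments. No mutant or transgene was involved, and whole organs were taken, so a change in the number of cells of a type and a change in RNA per cell cannot be told apart. The number of arrays limits the precision of every value below.

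Plants short of phosphate switch on phosphate transporters, phosphatases and lipid remodelling in both organs, largely through the transcription factor PHR1, and slow growth and photosynthesis in the shoot. Root and shoot do not respond alike. Phosphate status and immune signalling through salicylic acid are linked in Arabidopsis, since PHR1 represses a part of the immune response. In soil, roots also meet microbes, but here the seeds were surface sterilised and the methods describe no added microbes. None of 12 phosphate starvation genes with a measured row was among the 100, because all 12 were called higher at P0 in root and in shoot (medians of 3.46 and 5.23 on the log2 scale).

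The tissue labels were checked with markers. The mean level of 8 green shoot markers (photosynthesis genes) lay between 4.50 and 5.50 in the root arrays and between 7.02 and 9.21 in the shoot arrays. The mean of 5 root markers lay between 7.13 and 9.62 in root and between 6.01 and 6.76 in shoot. The gap narrowed at P0, where the shoot arrays were at 7.02 to 7.07 for the green markers against 8.29 to 9.21 at P1.25, and the root arrays were at 7.13 to 7.18 for the root markers against 8.02 to 8.53. The root markers were also at 6.61 to 6.76 in starved shoot against 6.01 to 6.37 in control shoot. Markers thus moved with the supply, and their part in the results was not tested. In root the green markers stood at 4.50 to 4.71 at P0 and 4.86 to 5.50 at P1.25, and whether this bears on the 100 genes was not tested.

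Replicate 3 stood apart at P1.25 and at P20, in root and in shoot. These 4 arrays, called the third arrays below, held 41.9% to 47.3% of the squared deviation from the group means over all rows, while replicate 3 at P0 held 34.1% in shoot and 35.8% in root. In the shoot at P20 the third array was the highest of the 3 for 47 of the 100 genes and the lowest for 46. The median SD of the 100 genes was 0.49 in the shoot at P20 and 0.42 in the shoot at P1.25, but 0.14 in the shoot at P0 and 0.15 in the root at P0. Results that rest on the third arrays are given with and without them.

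Scores ran from 1.87 down to 0.54 with a median of 0.70, and 12 genes scored above 1. A positive score was common in the whole table (3167 genes, 17.9%), so that the 100 genes are its upper end. The last genes inside were AT4G28000 (0.59 in root and -0.54 in shoot) and AT1G77122 (0.58 and -0.54), and the first outside were AT4G03410 (1.47 and -0.53) and AT1G56150 (1.14 and -0.53). The median difference of the 100 genes was 0.87 in root (0.54 to 3.08) and -0.84 in shoot (-2.51 to -0.54), where the medians of all genes were -0.02 and -0.01. At the limits of the methods, an adjusted p under 0.1 and more than 2-fold, limma called 32 of them higher in starved root (4.69% of all rows and 7.21% of all genes were called so) and 31 lower in starved shoot (7.62% and 5.23%). The 8 genes called in both tissues were AT2G25200, PGL1, AT5G10760, AT1G52342, RLP36, AT2G43620, AT1G69523 and AT4G32950. The share of all genes called in both was not counted, so nothing is read from this number. The P0 arrays lay wholly above the P1.25 arrays in root for 87 genes (15.5% of all rows, 20.1% of all genes), wholly below them in shoot for 76 (26.0% and 23.2%), and did both for 67 (1.28% and 1.39%). Of the 100, 22 stayed below the median of all values, 5.55, in all 6 groups and 24 stayed above it in all 6.

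The rule was also applied so that some arrays took no part in the choice. The rule was applied with 1 replicate number left out of the 4 groups, and the 100 genes it then chose were measured in the arrays left out. Of the genes chosen without the first arrays, 68 rose in root and fell in shoot in those arrays (68.0%, against 17.3% of all genes). For the second arrays it was 81 (81.0% against 18.3%), and for the third 65 (65.0% against 19.4%). The median differences in the arrays left out were 0.94, 0.75 and 0.68 in root and -0.65, -0.89 and -0.48 in shoot. In these choices 67, 72 and 64 of the 100 genes were chosen again. The shares thus describe the rule on other sets of genes, since the choice of the 100 genes reported here used all these arrays. With the third arrays at P1.25 alone left out, 65 were.

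**Figure D1:**
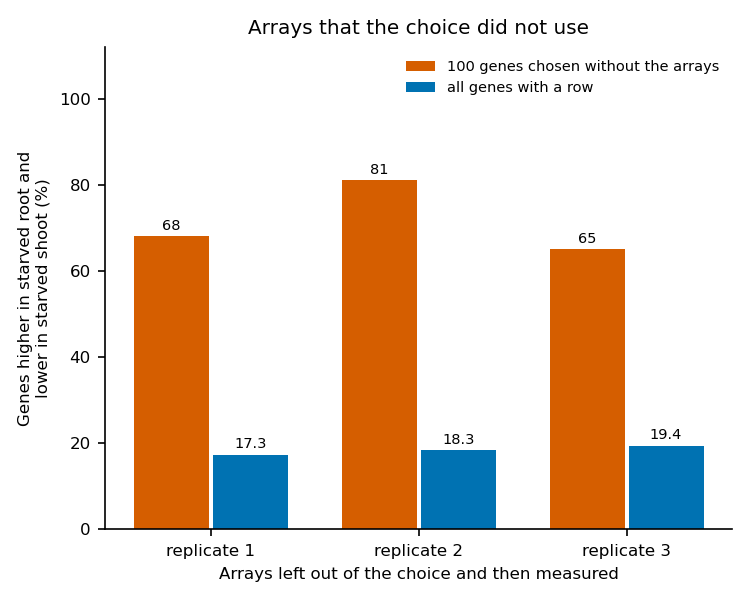
Share of genes (%, vertical axis) that were higher at P0 than at P1.25 in root and lower in shoot in the arrays of 1 replicate number, for the 100 genes chosen without those arrays (a separate choice each time) and for all 17663 genes. The chosen genes reached 65.0% to 81.0% and all genes 17.3% to 19.4%.

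The P20 arrays took no part in the choice, and the difference between root and shoot at P20 was tested for these genes. The test is not independent of the rule, which takes genes whose root minus shoot difference is lower at P1.25 than at P0. P20 lay close to P1.25 (median differences of 0.11 in root and -0.04 in shoot), so lower values at P20 were partly built in. Most of the 100 genes were higher in shoot at this supply. At P20, 66 of the 100 were called higher in shoot by limma (adjusted p under 0.1 over all rows and more than 2-fold), where 9.53% of all rows and 9.21% of all genes were. A single gene, AT3G01175, was called higher in root (7.19% of all rows, 9.55% of all genes), and 33 were not called. The median root minus shoot difference was -1.43 on the log2 scale (-4.95 to 1.68) for the 100 and 0.07 for all genes, and 87 of the 100 lay below 0. The shoot arrays at P20 all lay above the root arrays for 67 genes (17.4% of all rows, 18.1% of all genes), the reverse held for 2 (23.8% and 27.1%), and the arrays overlapped for 31. With the third arrays left out, 61 genes were called higher in shoot and 2 higher in root, and 57 of the 66 were called both ways. The shares over all rows were not counted for that fit, and those above belong to the fit of all arrays. Arrays of the same number at P1.25 and P20 deviated together (r of 0.13 to 0.29 in shoot and 0.077 to 0.225 in root, across all rows). The P20 arrays were thus not wholly independent of those that made the choice.

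**Figure D2:**
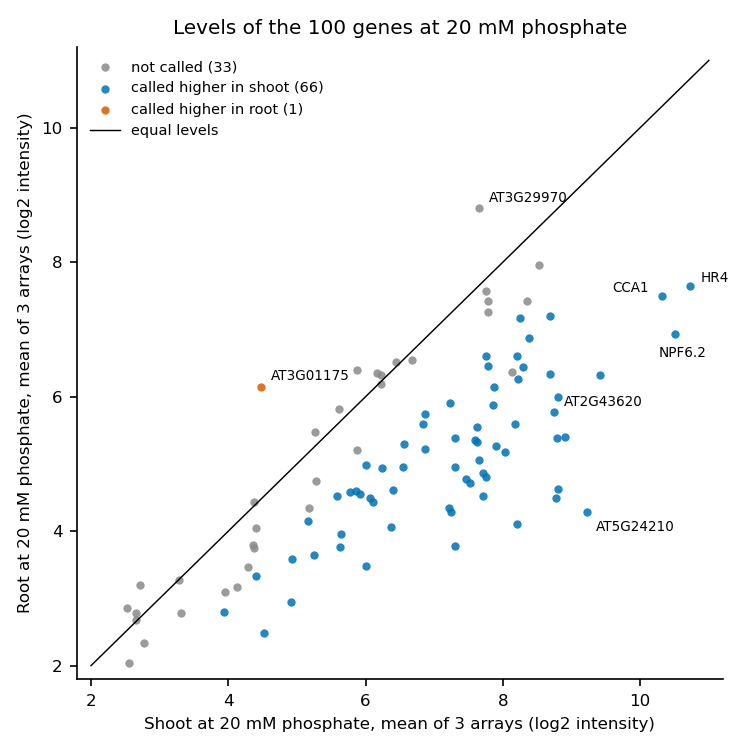
Mean log2 intensity of 3 arrays in shoot (horizontal axis) and in root (vertical axis) at 20 mM phosphate, 1 point per gene, with the line of equal levels. Of the 100 genes 66 were called higher in shoot and 1, AT3G01175, higher in root.

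The tissue difference at P20 was close to that at P1.25, and at P0 it was smaller or had changed sign for most of the genes. The median root minus shoot difference was -1.58 at P1.25 (95 genes below 0), -1.43 at P20 and 0.36 at P0 (61 genes above 0). The median level of the 100 genes in root was 4.89 at P1.25 and 4.97 at P20 against 5.96 at P0, and in shoot it was 6.76 and 6.85 against 5.84. Over the 100 genes the medians of the tissues were thus close at P0, although single genes still differed, from -2.63 to 3.62. By sign, 48 genes were higher in shoot at P20 and higher in root at P0, 39 were higher in shoot at both supplies and 13 were higher in root at both. The size of the difference, whatever its sign, had a median of 1.50 at P20 and 0.84 at P0, and was smaller at P0 for 65 genes. For all genes it was 0.33 and 0.32, so that the tissues of the 100 genes remained further apart at P0 than those of all genes. The values at P1.25 and P0 were used by the choice and are descriptions.

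**Figure D3:**
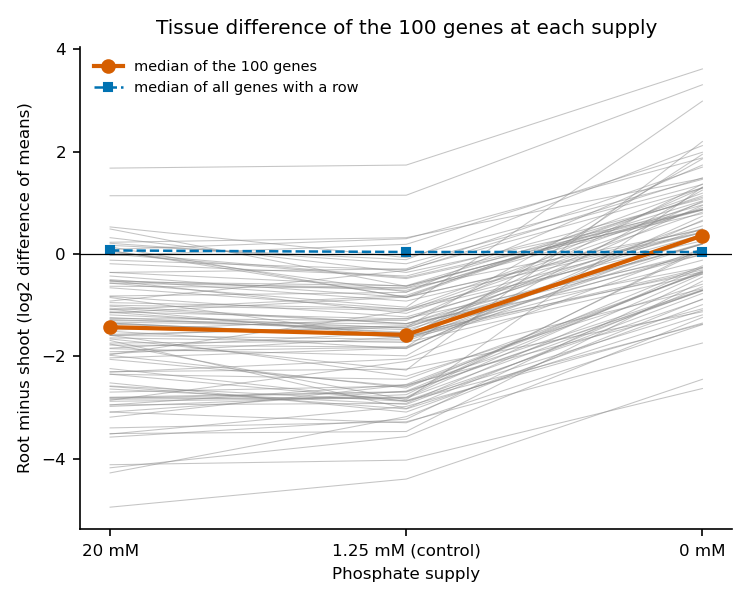
Root minus shoot difference of group means (log2, vertical axis) at 20, 1.25 and 0 mM phosphate, 1 grey line per gene, with the median of the 100 genes and of all genes. The median of the 100 genes is -1.43 at 20 mM, -1.58 at 1.25 mM and 0.36 at 0 mM.

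Of the 100 genes, 39 carried an annotated role in the sources used, and they are taken by role below. The other 61 had no description in those sources and are named by locus. They may have known roles, including those below, so the counts by role cover the 39 only. Among the 39 the largest shared role was immunity, with 8 genes that act in the recognition of microbes or in the salicylic acid branch of defence. All of them but AT2G43620 were named only by the tables of the study, which hold genes that changed at P0. These roles were assigned to the 100 genes only, so no share over all genes is given. The median P0 minus P1.25 difference of the 8 immunity genes was 1.34 in root and -1.34 in shoot. At P20 all 8 were called higher in shoot (median -1.77), but only 4 of 8 without the third arrays (median -1.10): AT5G10760, AT2G43620, HR4 and RLP37. In the shoot at P20 the third array was the highest of the 3 for all 8.

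AT5G10760 encodes AED1, an apoplastic protease whose induction depends on the immune regulator EDS1. Its root arrays read 3.90, 3.76 and 3.96 at P1.25, 3.60, 3.49 and 4.22 at P20 and 5.71, 5.89 and 5.53 at P0. Its shoot arrays read 5.70, 5.98 and 5.92 at P1.25, 4.59, 4.94 and 7.34 at P20 and 4.58, 4.25 and 4.54 at P0. Root at P0 and shoot at P1.25 were thus at almost the same level, and 2 of the 3 P20 shoot arrays were nearer to the starved shoots than to the control. At P20 the gene was 3.61-fold higher in shoot (log2 difference -1.85, SE 0.49, limma adjusted p 0.00808), and the difference was -1.22 without the third arrays (adjusted p 0.000243). Without the third shoot array at P20 alone it was -0.99, under the 2-fold limit.

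Receptor-like proteins are cell-surface receptors without a kinase domain, and 3 of them were among the 100. RLP42, also called RBPG1, recognises fungal endopolygalacturonases. Its root arrays read 6.56, 6.95 and 7.16 at P1.25, 7.08, 6.61 and 6.92 at P20 and 7.79, 7.87 and 7.85 at P0, and its shoot arrays 8.37, 8.77 and 9.08 at P1.25, 7.49, 7.92 and 9.72 at P20 and 7.23, 6.97 and 7.09 at P0. In the starved plants the root lay above the shoot in every array, and at P1.25 the shoot lay above the root in every array. At P20 it was 2.84-fold higher in shoot (-1.51, SE 0.40, limma adjusted p 0.00913), and -0.86 without the third arrays, under the 2-fold limit.

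RLP36 had low signals, with root arrays at 3.36, 3.59 and 3.19 at P1.25 and 4.96, 5.54 and 4.80 at P0. Its shoot arrays were at 5.00, 4.44 and 5.56 at P1.25 and at 3.35, 3.83 and 4.0 at P0. The groups did not overlap in either tissue. At P20 its call rested on the third shoot array, 5.73 against 4.14 and 3.36: the difference was -1.08 (SE 0.46, limma adjusted p 0.0901), and -0.29 without the third arrays (adjusted p 0.599). RLP37, in contrast, kept its P20 difference, which was -1.91 (SE 0.43, limma adjusted p 0.00275) with all arrays and -1.65 without the third.

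AT2G43620 encodes a chitinase, an enzyme that cuts the chitin of fungal walls. In root its arrays read 3.93, 5.22 and 5.30 at P1.25, 5.93, 5.19 and 6.18 at P20 and 6.10, 6.14 and 5.93 at P0. In shoot they read 7.66, 8.65 and 6.39 at P1.25, 8.35, 8.36 and 9.52 at P20 and 6.0, 5.86 and 6.08 at P0. Root and shoot were together near 6 in starved plants, and the shoot spread over more than 2 log2 units at P1.25. At P20 it was 7.86-fold higher in shoot (-2.98, SE 0.50, limma adjusted p 0.000247).

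NIMIN-3 encodes a protein that binds NPR1, the coactivator of salicylic acid responses. Its arrays read 4.50, 4.01 and 4.87 in control root against 5.53, 5.40 and 5.25 in starved root, and 5.90, 5.96 and 5.87 in the control shoot against 4.46, 4.68 and 5.11 in the starved shoot. The P20 difference was -1.19 (SE 0.21, limma adjusted p 0.000425), and -0.98 without the third arrays. HR4, a homolog of the mildew resistance protein RPW8, had the widest P20 difference of the 8 genes. Its P20 arrays read 7.22, 7.19 and 8.50 in root and 10.46, 10.40 and 11.32 in shoot, an 8.51-fold difference (-3.09, SE 0.30, limma adjusted p 1.15e-06). Its starved arrays were at 9.36, 9.46 and 9.42 in root and at 9.73, 9.78 and 9.75 in shoot, so that the means of the tissues differed by -0.33 there.

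ANK (BDA1), an ankyrin repeat protein of immune signalling, depended on the array. In the shoot it read 6.13, 7.17 and 7.51 at P1.25, 4.92, 4.42 and 7.58 at P20 and 5.33, 5.09 and 4.95 at P0. The first 2 arrays at P20 lay below all P0 arrays and the third above all P1.25 arrays. The P20 tissue difference was -1.69 (SE 0.59, limma adjusted p 0.042) with all arrays and -0.80 (adjusted p 0.127) without the third.

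**Figure D4:**
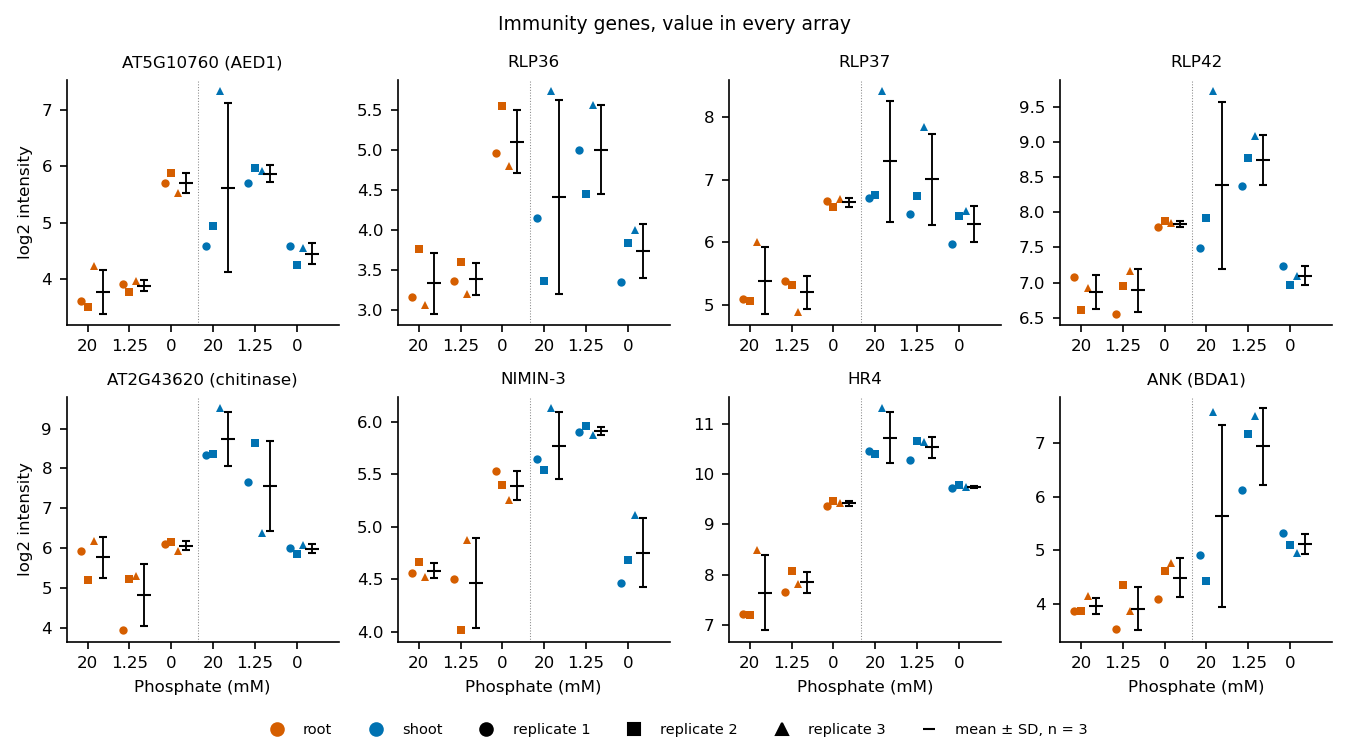
Log2 intensity (vertical axis) of the 8 immunity genes in each array, root in orange and shoot in blue, by phosphate supply in mM, with symbols for the replicate number and mean ± SD (n = 3) beside each group. The third shoot array at 20 mM is the highest of its group in all 8 panels.

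Wider lists of defence genes held few of the 100. These lists were drawn from known function with earlier results of these data known, and most of their measured genes are named only by the tables of the study, which hold genes that changed. Of 12 measured genes of salicylic acid signalling and systemic resistance (1 of them, AED1, among the 100), limma called 9 higher in starved root and 1 lower (median 1.75), and in starved shoot 0 higher and 3 lower, with a median of 0.42. Of 12 pathogenesis-related proteins and chitinases (1 among the 100), 6 were higher in starved root and 0 lower, and in starved shoot 5 were higher and 2 lower. Of 6 immune receptors and kinases (1 among the 100), 2 were higher in root, and in shoot 1 was higher and 2 lower. Of 6 genes of tryptophan, camalexin and indole glucosinolate synthesis, 4 were higher in root and 3 in shoot. Over all genes 7.21% were called higher in starved root and 5.23% lower in starved shoot, but the way these lists are named sets their shares in part, and no comparison is drawn.

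Carbon and nitrogen metabolism held 6 of the 100 genes, of which 4 were called higher in shoot at P20 (median -1.54) and 5 without the third arrays (median -2.50). ASN1, the asparagine synthetase that is switched on in darkness and sugar shortage, had the second highest score. Its root arrays read 5.50, 5.43 and 6.11 at P1.25, 5.75, 5.70 and 7.64 at P20 and 7.32, 7.38 and 7.29 at P0. Its shoot arrays read 9.46, 9.57 and 6.57 at P1.25, 8.88, 9.16 and 6.35 at P20 and 6.08, 5.95 and 6.02 at P0. In shoot replicate 3 sat near the starved level at both other supplies, and in root it did so at P20. The P20 difference was -1.76 (SE 0.79, limma adjusted p 0.108) with all arrays and -3.29 (SE 0.11, adjusted p 1.11e-08) without the third.

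PGL1 encodes a 6-phosphogluconolactonase of the oxidative pentose phosphate pathway. Its arrays read 5.18, 5.70 and 4.77 in control root and 6.88, 6.69 and 6.87 in starved root, and 7.01, 7.19 and 5.74 in control shoot and 4.74, 4.90 and 5.24 in starved shoot. At P20 the shoot arrays, 7.64, 7.51 and 6.54, all lay above the root arrays, 6.31, 5.78 and 5.63 (-1.33, SE 0.37, limma adjusted p 0.0116). TPS11, of the trehalose-6-phosphate synthase family, had a P20 difference of -1.15 (SE 0.37, limma adjusted p 0.0283), which was not called without root P20 replicate 2 (-0.88) or shoot P20 replicate 1 (-0.99), and the third shoot arrays at P1.25 (6.33) and P20 (7.21) were the lowest of their groups.

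AT2G26690 encodes NPF6.2, a transporter of the nitrate and peptide transporter family. In root it read 6.24, 7.08 and 7.33 at P1.25, 6.66, 6.61 and 7.52 at P20 and 8.95, 8.79 and 8.95 at P0, and in shoot 10.51, 10.18 and 9.65 at P1.25, 10.68, 10.59 and 10.27 at P20 and 9.39, 9.33 and 9.31 at P0. The shoot stayed above the root at every supply, by 12-fold at P20 (-3.58, SE 0.29, limma adjusted p 1.84e-07). AT5G58330, an NADP-dependent malate dehydrogenase, an enzyme that exports reducing power from chloroplasts, was 10.6-fold higher in shoot at P20 (-3.40, SE 0.28, limma adjusted p 2e-07). CSY1, a citrate synthase, had low signals in all groups and a P20 difference of -0.52 that was not called.

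A pair of genes made leaf pigments, and both were called higher in shoot at P20. CH1 encodes chlorophyllide a oxygenase, which makes chlorophyll b, and read 9.97, 9.89 and 8.46 in control shoot, 9.73, 9.65 and 8.85 in P20 shoot and 8.03, 8.24 and 8.08 in starved shoot. In root it read 6.05, 6.03 and 6.34, 6.41, 5.98 and 6.56, and 6.79, 6.55 and 6.88 in the same order. Shoot remained above root in every array at every supply, and the P20 difference was 8.52-fold (-3.09, SE 0.33, limma adjusted p 3.06e-06). LUT2, the lycopene epsilon cyclase at the branch towards lutein, was 6.03-fold higher in shoot at P20 (-2.59, SE 0.26, limma adjusted p 1.67e-06) and read 8.15, 8.20 and 7.61 in control shoot against 6.78, 6.79 and 6.80 in starved shoot. None of the 9 measured genes of the photosynthesis list was among the 100: 8 of them were called lower in starved shoot, but 0 were called higher in starved root and 1 was called lower there (median -0.59).

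All 4 transcription factors were called higher in shoot at P20, with all arrays and without the third. CCA1, a MYB-related factor of the circadian clock that peaks around dawn, read 7.09, 7.12 and 8.02 in control root and 8.50, 8.55 and 8.36 in starved root. In shoot it read 10.58, 10.34 and 9.40 at P1.25 and 9.17, 9.22 and 9.19 at P0, so that in both tissues the third control array was the nearest to the starved arrays. At P20 it was 7.06-fold higher in shoot (-2.82, SE 0.44, limma adjusted p 0.000143), and the log2 difference was -3.47 without the third arrays.

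ESE3, an ethylene-responsive factor also called ERF003, stood above the control at P20 in both tissues. Its root arrays read 4.57, 5.27 and 5.24 at P1.25, 5.84, 5.90 and 6.67 at P20 and 6.04, 6.37 and 6.26 at P0, and its shoot arrays 6.82, 6.94 and 6.43, then 8.30, 7.97 and 7.35, then 6.10, 6.0 and 5.96. The P20 arrays did not overlap with the P1.25 arrays in either tissue, and in shoot P20 and P0 lay on opposite sides of the control. The tissue difference at P20 was -1.74 (SE 0.27, limma adjusted p 0.000117). BLH6, a BEL1-like homeodomain factor, and ZAT7, a zinc finger protein of stress responses, had P20 differences of -1.30 and -2.03 (limma adjusted p 0.00515 and 0.00562), and that of ZAT7 was -1.37 without the third shoot array at P20.

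**Figure D5:**
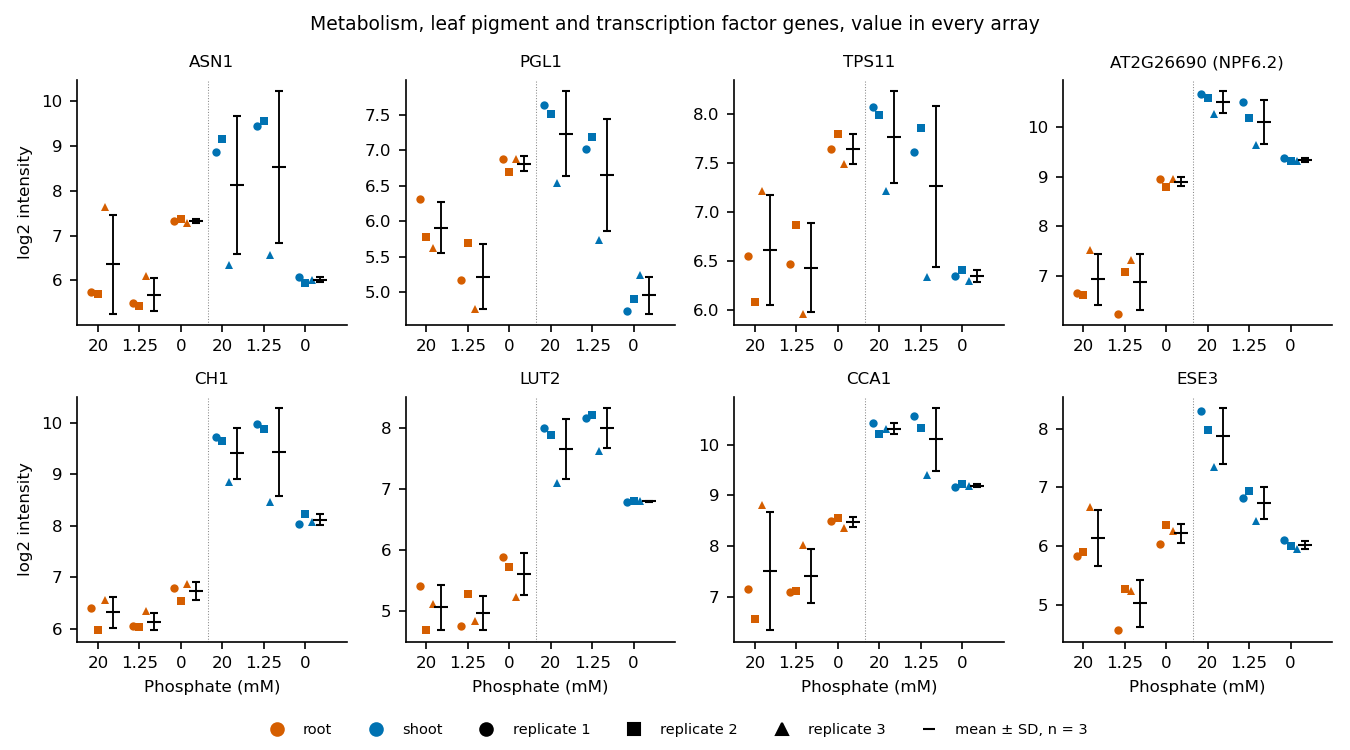
Log2 intensity (vertical axis) of 4 metabolism genes, 2 leaf pigment genes and 2 transcription factor genes in each array, root in orange and shoot in blue, by phosphate supply in mM, with mean ± SD (n = 3) beside each group. In the shoot the third arrays of ASN1 read 6.57 at 1.25 mM and 6.35 at 20 mM, near the 0 mM arrays.

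Cytochrome P450s and glycosyltransferases, which modify plant hormones and defence compounds, numbered 4 among the genes with a role given. Of these, 2 were called higher in shoot at P20. UGT88A1, a UDP-glucosyl transferase, read 4.63, 4.79 and 5.21 in control root, 4.56, 4.80 and 4.77 in P20 root and 5.91, 5.78 and 5.94 in starved root, and in shoot 7.72, 7.66 and 7.31, then 7.64, 7.57 and 7.34, then 6.61, 6.69 and 6.45. P20 and P1.25 overlapped in each tissue and P0 stood apart in both. The P20 difference was -2.80 (SE 0.16, limma adjusted p 1.1e-08). UGT76C2, which glucosylates cytokinins, showed no such tissue difference at P20 (0.09, SE 0.15, limma adjusted p 0.697). CYP71B3 was called (-1.57) and CYP71B14 was not (-0.82, limma adjusted p 0.144), except without root P20 replicate 3 (-1.23) or shoot P20 replicate 2 (-1.15).

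The 3 genes of cell wall and growth were not called at P20 with all arrays. EXPA1, an expansin that loosens walls, had a difference of -0.52, GASA1, a gibberellin-regulated protein, -0.92 (-1.0 to -1.04 and called without root P20 replicate 1 or 2 or shoot P20 replicate 2), and AT1G14890, of the invertase and pectin methylesterase inhibitor family, -0.12. The remaining 12 annotated genes had diverse roles, and 8 of them were called higher in shoot at P20 (median -1.55). Among them AT5G24210, of the class 3 lipase family, had the widest tissue difference of the 100. Its P20 arrays read 3.74, 3.52 and 5.58 in root and 9.06, 8.83 and 9.81 in shoot (30.9-fold, log2 difference -4.95, SE 0.43, limma adjusted p 3.45e-07), and the log2 difference was -5.60 without the third root array. AT3G16530, a legume lectin-like protein, followed with 19.4-fold (-4.28, SE 0.59, limma adjusted p 3.92e-05), although its P20 root arrays were spread, at 3.60, 3.56 and 6.32, and the difference was -5.19 without the third of them. AT4G32950, a putative protein phosphatase 2C, passed at -1.26 (SE 0.47, limma adjusted p 0.0551), and the third root arrays at P1.25 (6.07) and P20 (5.72) lay close to the starved root (6.16, 6.29 and 6.14). The call was lost without replicate 1 or 2 of either tissue at P20 (-0.96 to -1.30), and the difference was -1.95 without the third arrays.

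The 61 genes with no role given followed the same course, with 38 called higher in shoot and 1 higher in root at P20 (median -1.35). AT2G25200 had the highest score of all. Its root arrays read 4.66, 4.50 and 4.44 at P1.25, 4.75, 4.81 and 4.28 at P20 and 6.22, 6.51 and 6.48 at P0, and its shoot arrays 6.97, 6.59 and 5.49, then 7.02, 6.59 and 5.58, then 4.19, 4.83 and 4.34. In both tissues the P20 arrays overlapped with the control arrays, and P0 lay outside both groups. At P20 it was 3.44-fold higher in shoot (-1.78, SE 0.36, limma adjusted p 0.00135). AT1G52342 had the largest rise in starved root, 3.08, from 3.81, 4.33 and 3.96 to 7.08, 7.35 and 6.91, and a P20 difference of -1.66 (limma adjusted p 0.00374).

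AT2G14080 and AT1G69730 had the widest P20 differences among the genes with no role given. AT2G14080 read 4.38, 4.39 and 5.11 in root and 8.82, 8.73 and 8.87 in shoot at P20 (18.2-fold, log2 difference -4.18, SE 0.17, limma adjusted p 3.08e-09), and AT1G69730 was 17.4-fold higher in shoot (-4.12, SE 0.30, limma adjusted p 7.66e-08). Their starved roots, at 6.80, 6.58 and 6.44 and at 4.72, 5.02 and 5.35, stayed below the starved shoots, at 7.80, 7.92 and 7.82 and at 7.70, 7.63 and 7.64. AT4G22520 (-3.52), AT5G44572 (-2.95), AT3G51870 (-2.81), AT1G22430 (-2.64), AT1G77122 (-2.30), AT1G69523 (-1.37) and AT2G16380 (-1.09) were also called, with all arrays and without the third, and AT2G16380 was not without root P20 replicate 2 (-0.93). AT4G28000 (-0.63) and AT2G06541 (0.14) were not called.

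For 3 more genes of high score the third arrays mattered. AT4G36700 read 8.82, 8.39 and 4.53 in shoot and 4.41, 4.36 and 4.11 in root at P20, so that the third shoot array was close to the roots. Its difference was -2.95 (limma adjusted p 0.0133) with all arrays and -4.22 (adjusted p 1.79e-06) without the third. AT3G57460 read 3.60, 3.79 and 7.36 in shoot and 3.04, 2.48 and 3.31 in root at P20, and its call rested on the third shoot array. The difference was -1.98 (limma adjusted p 0.0417) with all arrays and -0.94 (adjusted p 0.0255), under the 2-fold limit, without the third. AT4G10860 was not called with all arrays (-0.95, limma adjusted p 0.183) and was called without the third (-1.03, adjusted p 0.0802).

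The genes that ran the other way at P20 were few. AT3G01175 read 6.49, 6.0 and 5.95 in root and 3.97, 4.08 and 5.36 in shoot (3.20-fold, log2 difference 1.68, SE 0.46, limma adjusted p 0.0101). AT3G29970 read 8.37, 8.11 and 9.91 in root and 7.24, 7.05 and 8.68 in shoot, with the third array the highest in both tissues. It was not called with all arrays (1.14, SE 0.57, limma adjusted p 0.15) and was called higher in root without the third (1.1, SE 0.28, adjusted p 0.0101). Of the 22 genes under the median of all values in all groups, 7 were called higher in shoot (median -0.72). Of the 12 genes with a score above 1 it was 10, but the score itself favours such a call and no comparison is drawn. AT1G58225 read 2.80, 2.89 and 3.57 in control root and 5.93, 6.31 and 6.02 in starved root, yet its P20 arrays overlapped between the tissues (-0.57, limma adjusted p 0.559), and the difference was 0.13 without the third shoot array and -1.37 without the third root array.

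None of the 100 genes was called between P20 and P1.25 when all arrays were used. The comparison of P20 with P1.25 shares its control arrays with the choice, so its counts are descriptions. At an adjusted p under 0.1 limma called 0 of the 100 genes in root (18 of 38408 rows, 0.0469%, and 0.0679% of all genes) and 0 in shoot (14 rows, 0.0365%, and 0.0396% of all genes). At an unadjusted p under 0.05 it was 9 genes in root (5.58% of all rows, 5.72% of all genes) and 8 in shoot (8.82% and 8.78%), and a 2-way model without moderation of the variance also called 0 after adjustment. The median P20 minus P1.25 difference was 0.11 in root (-1.11 to 1.11) and -0.04 in shoot (-1.29 to 1.18). For ESE3 (ERF003) it was 1.11 in root (limma adjusted p 0.372) and 1.14 in shoot (limma adjusted p 0.244). The paper, in contrast, lists ERF003 as regulated in shoot by P20 and not by P0. By qRT-PCR it reports a change of ERF003 specific to P20 in both tissues, and it proposes a possible role in reshaping the root system. Why the calls differ was not tested.

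The counts changed when the third arrays were left out. Limma then called 9 of the 100 genes in root (2.61% of all rows), 1 higher and 8 lower at P20, and 15 in shoot (3.10%), 5 higher and 10 lower. In root the lectin-like AT3G16530 was lower at P20 by 1.66 on the log2 scale (SE 0.18, adjusted p 0.0017), AT1G33600 differed by -1.10 (SE 0.14, adjusted p 0.00369) and HR4 by -0.66 (SE 0.15, adjusted p 0.0678). In shoot AT2G29500 differed by -1.65 (SE 0.17, adjusted p 0.00116), AED1 by -1.08 (SE 0.17, adjusted p 0.015), ANK by -1.98 (SE 0.37, adjusted p 0.0313) and RLP42 by -0.87 (SE 0.21, adjusted p 0.0828). ESE3 was the gene called higher in both tissues, by 0.95 in root (SE 0.21, adjusted p 0.0604) and 1.26 in shoot (SE 0.21, adjusted p 0.0172). These fits leave 2 arrays in each of the groups concerned.

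In the RefSeq order of genes 5 pairs of the 100 genes lay within 10 genes of each other. The number among genes taken at random was not worked out, so no reading is given. CYP71B14 and ESE3 were adjacent, UGT88A1 and AT3G16530 had 1 gene between them and AT1G69523 and EXPA1 had 2. AT1G02610 and AT1G02660, and AT1G23840 and AT1G23910, had 6 each. None of the 100 rows held the same values as another row.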

How the data were processed

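The deposited values are log2 intensities of 38408 gene-level rows in 18 arrays, which the authors made with RMA (background correction, quantile normalisation and summary over probes) in Partek Genomics Suite 6.6. They were used as deposited. No row was filtered, and probe-level signals were not used here, so background and saturation are unknown. Rows were named where exactly 1 gene was given, 16722 by the platform annotation and 1121 by gene names in the tables of the study. The fold changes and p-values in those tables were not used. The highest row stood for each gene. Such tables over-represent genes that changed at P0, and 21 of the 100 genes were named by them.

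All 38408 rows were fitted with 6 group means in limma 3.58.1 in R 4.3.3, with 12 residual and 2.43 prior degrees of freedom and Benjamini-Hochberg adjustment over all rows. Genes were called at an adjusted p under 0.1 and more than 2-fold, or at any fold for P20 against P1.25. The steps were tested on simulated data. No exact test of 3 arrays against 3 can give a two-sided p below 0.1. The genes, their groups and the lists were chosen with earlier results of these data known. The genes named are those with the 24 highest scores, the 6 widest called differences in each direction at P20 (1 in root), the 4 largest P20 minus P1.25 differences in each tissue, members of lists or of the receptor-like protein family and those at the threshold, 37 in all, and 12 more were added by role. Array values are shown for a part of them. Gene symbols and neighbours are from RefSeq (TAIR10.1).

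Alternatives were array weights, a trended variance, other scalings, leaving out arrays, other limits and other forms of the rule. Whether replicate numbers pair arrays was checked by the correlation of deviations from the group means over all rows, with a cut-off of 0.1. Shoot arrays at P1.25 and P20 with the same number correlated at 0.136, 0.130 and 0.291, all above it, and so count as paired. Root with shoot at P20 (0.094, 0.102 and 0.202) and root at P1.25 with P20 (0.077, 0.127 and 0.225) lay on both sides of the cut-off, so pairing there is not excluded. P0 with P1.25 lay below it in both tissues. The main fit used no pairing.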

Additional observations from a re-analysis of the deposited data

How the results depend on the processing

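The number of the 100 genes called higher in shoot at P20 was 66 and lay between 57 and 72 in all alternatives, and between 59 and 66 when 1 P20 array was left out. For this comparison and for P0 against P1.25 the shares over all rows were not counted in the alternatives. Of the 66 genes, 48 were called in every error model, scaling and set of arrays tried. The 1 gene called higher in root became 2 with array weights, with a replicate block over all 18 arrays, without replicate 3 at P1.25 and P20 (the third arrays) and at any fold, and 1 to 2 when 1 P20 array was left out. Calls lower in starved shoot went from 31 to 48 without the third arrays (24 to 44 when 1 array was left out). Calls higher in starved root went from 32 to 44 without the third arrays, to 43 with each array centred on its median and to 40 with array weights. They were 28 at an adjusted p under 0.05 and lay between 25 and 36 when 1 array was left out. Between P20 and P1.25, 9 genes in root and 15 in shoot were called without the third arrays, and 0 to 3 and 0 to 4 when 1 array was left out, with the highest counts without the third P20 array. The rule kept 64 to 92 of its 100 genes when arrays were left out, 37 when each difference was divided by its pooled SD, and 65 when replicate 3 was left out at P1.25 alone. The replicate block gave 66 genes higher in shoot at P20, 31 higher in starved root and 32 lower in starved shoot, against 66, 32 and 31 without it, and 0 in both comparisons of P20 with P1.25, as without it. Of the 49 genes named by rule or by role, 32 kept the same call or lack of one at P20 in all alternatives, 10 lost a call in some and 7 gained one in some. No call changed direction, while 3 genes without a call changed sign when 1 array was left out (AT1G58225, UGT76C2 and AT1G14890, to 0.13, -0.03 and 0.01). The causes were not tested. Promoter motifs and protein lengths, which were planned, were not run. Without probe-level signals, values near the low end have no measured distance from background, and 3 arrays per group limit what could be detected.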
